A study of Mus musculus with 8 samples.

Results

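The baseline state of an immortalized mouse brown adipocyte line was described from the 4 arrays labelled as DMSO vehicle, out of 8 arrays in the series. The members were taken by their labels alone. After 8 days of differentiation the cells were kept for 18 h with DMSO, a solvent, and total RNA was hybridised. The other 4 arrays belong to cells given the compound Z16078526 at 10 µM in that solvent and are not compared here. All 4 arrays come from the same line. Its strain, the way it was immortalized and the differentiation medium are unstated in the labels. Nor do the labels say whether the 4 samples were separate cultures, so each SD below may reflect technical spread alone.

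Brown adipocytes are fat cells that burn fatty acids in many mitochondria and release the energy as heat through the uncoupling protein UCP1 of the inner mitochondrial membrane. They share with white adipocytes the receptor PPARG, which drives fat cell differentiation, the enzymes that make and break down triglyceride, and the hormone adiponectin. White adipocytes store lipid and secrete leptin. In culture, fat cells arise from fibroblast-like precursors, so a dish can also hold cells that kept precursor traits.

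Values are log2 intensities of 1 probe per gene symbol, the brightest over the 4 arrays, and a value of 4 is the floor, set at an intensity of 16. Of 16593 genes, 8285 lay above the floor on all 4 arrays, 1954 on 1 to 3 arrays and 6354 (38.3%) on none. The genes above the floor on all 4 arrays are called very bright from a mean log2 of 13 (360 genes), bright from 10 (2429), moderate from 7 (3400) and dim below that (2096). The very bright genes held 39.2% of the summed intensity and the dim genes 0.948%. Probes differ in how well they bind their target, so a rank below is a rank of signal and not of transcript number. Of 3164 genes above the floor on all arrays with a second probe, 486 (15.4%) had that probe at the floor. In bulk RNA, fewer cells of a type and less RNA per cell cannot be told apart.

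**Figure D1:**
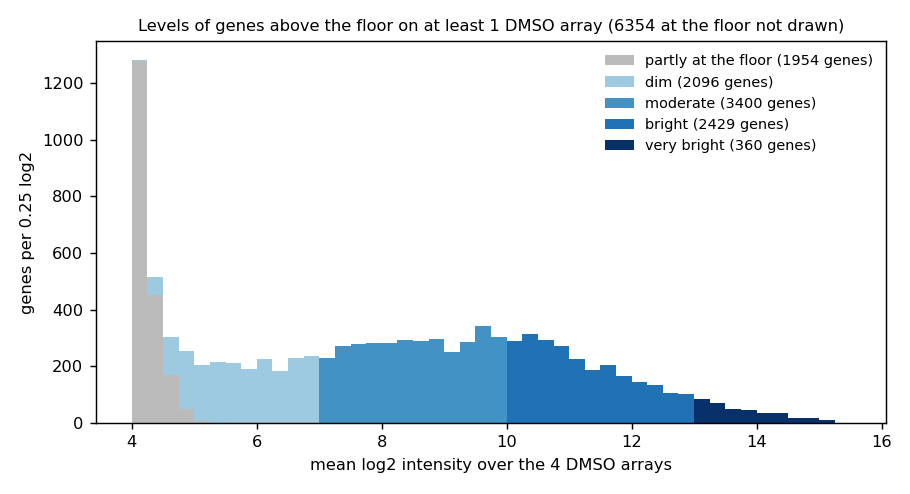
Number of genes (vertical axis) by mean log2 intensity over the 4 DMSO arrays (horizontal axis, in steps of 0.25), coloured by brightness class. The 1954 genes partly at the floor and the 2096 dim genes make up the left side, and the 360 very bright genes form the thin right end, up to 15.32; the 6354 genes at the floor are not drawn.

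The arrays were close to each other. Pearson's r across all genes was 0.9959 to 0.9966 for the 6 pairs of arrays, with genes not being independent replicates. The median SD was 0.0600 for very bright, 0.0815 for bright, 0.120 for moderate and 0.249 for dim genes. In 4.84% of the 8285 genes above the floor, 1 array lay far from the other 3 by Dixon's criterion, where chance gives about 5%. DMSO 3 stood apart in a group of genes, those of the interferon response, which are described at the end with and without it.

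Genes that fat cells do not use show how low the signal can be read. Of 1241 genes for olfactory, vomeronasal and taste receptors, 13 lay above the floor on all 4 arrays (1.05%), and the brightest had a mean of 5.71. On a single array, 4.92% to 5.32% of them passed the floor. The opposite error was also present. Genes that every cell uses lay at or near the floor, among them the translation factor gene Eef1a1 (4.06 ± 0.13, SD, n = 4 arrays here and below), the ferritin light chain gene Ftl1 (4.27 ± 0.37), the actin gene Actg1 (4.18 ± 0.36) and the ribosomal protein genes Rps23, Rpl17 and Rplp2, all 3 at the floor on every array. Each of these 6 genes had 1 probe. A gene at the floor is therefore listed as that, and nothing is said of its absence.

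The brightest genes were those of protein synthesis, respiration and glycolysis. Of the 100 brightest genes, whose lowest mean was 14.09, 27 encoded ribosomal proteins and 5 glycolytic enzymes. Another 5 were listed as subunits of respiratory complex I and 15 as subunits of complexes II to V. The single brightest gene was Mt1, which encodes the metal-binding protein metallothionein 1, at 15.32 ± 0.02, and the related Mt2 lay at 10.12 ± 0.17 while Mt3 lay at the floor. All arrays share the same highest value, which Mt1 held on every array but DMSO 3, so the SD of Mt1 reflects its order. Behind Mt1 came Dbi (15.24 ± 0.08), whose product binds acyl-CoA esters, and Mif (15.22 ± 0.04), a secreted cytokine. Next were the ribosomal protein genes Rpl41 (15.22 ± 0.06) and Rplp1 (15.20 ± 0.04), and then the glycolytic Gapdh (15.17 ± 0.03). The neighbours in this order from rank 2 to rank 5 differ by less than their SD. Other genes among the 40 brightest were Atp5b of the ATP synthase (15.14 ± 0.04), the ferritin heavy chain gene Fth1 (15.12 ± 0.08), the tubulin gene Tuba1b (14.98 ± 0.03), the chaperone gene Hspa8 (14.89 ± 0.04), the membrane-binding Anxa2 (14.82 ± 0.04), B2m (14.84 ± 0.07), which encodes the light chain of class I antigen-presenting molecules, and the galectin gene Lgals1 (14.71 ± 0.04). The histone gene H2ac24 (14.66 ± 0.08) and the ribosomal protein genes have near-identical copies, so their probes may read more than 1 locus.

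Of all 16593 genes, 49.9% lay above the floor on all 4 arrays, 16.8% reached a mean of 10 and 2.17% a mean of 13, and the median of all genes was 4.60. Lists of genes are read against these shares and were not tested. Of 62 ribosomal protein genes, 55 were above the floor on all 4 arrays and 42 were very bright, with a list median of 13.93. Of 34 measured genes listed as subunits of complex I, the entry of electrons from NADH, 33 were above the floor on all arrays. Of the 34, 22 were very bright, and the median was 13.48. Ndufa13 led at 14.69 ± 0.04, Ndufb8 (14.31 ± 0.04) and Ndufa4 (14.27 ± 0.04) followed, and Ndufs1, a core subunit that holds iron-sulfur clusters, lay at the floor. Of 42 genes of complexes II to V and cytochrome c, 39 were above the floor on all arrays, with a median of 12.96. The 3 others were Atp5k and Cox4i2 at the floor and Uqcrq of complex III, above it on DMSO 1 only (4.11 ± 0.22). Uqcrfs1 (4.74 ± 0.23) and Cox6b2 (4.93 ± 0.23) were dim, and cytochrome c, Cycs, lay at 7.65 ± 0.35.

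Most genes of fuel oxidation lay above the floor. Of 20 measured genes of the TCA cycle and pyruvate entry, 18 were above the floor on all arrays, with a median of 11.75, led by the isocitrate dehydrogenase subunits Idh3g (13.70 ± 0.07) and Idh3b (13.49 ± 0.08). Of 23 genes of mitochondrial fatty acid oxidation, 21 were above the floor, with a median of 11.40. The electron transfer flavoprotein genes Etfa (14.35 ± 0.05) and Etfb (14.00 ± 0.03), which pass electrons from acyl-CoA dehydrogenases to the respiratory chain, and the medium-chain dehydrogenase gene Acadm (14.16 ± 0.07) led the list. Carnitine palmitoyltransferase 1 controls the entry of fatty acids into mitochondria and has 3 genes. Cpt1b, the form of muscle and brown fat, was dim at 6.69 ± 0.25, Cpt1c lay at 5.65 ± 0.10 and Cpt1a, the form of liver, was at the floor, each on its brightest probe. Of 21 glycolytic genes 18 were above the floor, with a median of 11.04. Ldha, which makes lactate, reached 14.79 ± 0.03, the hexokinase gene Hk2 12.72 ± 0.09 and Hk1 7.47 ± 0.11.

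Several enzymes of energy metabolism have a form of heart, skeletal muscle and brown fat beside a form of most tissues. For the cytochrome oxidase subunit 7A, the muscle-type Cox7a1 measured 14.28, 14.36, 14.40 and 14.29 on DMSO 1 to 4, and the common Cox7a2 10.51, 10.80, 10.66 and 10.62. For subunit 8, the muscle-type Cox8b lay at 10.18 ± 0.16 and the common Cox8a at 14.85 ± 0.04. For subunit 6A, the muscle-type Cox6a2 lay at 12.12 ± 0.14 and the common Cox6a1 at 14.53 ± 0.03. All 3 muscle-type subunits were thus above the floor on every array, with Cox7a1 at rank 70 of all genes, Cox6a2 at rank 775 and Cox8b at rank 2576. Of the creatine kinases, which shuttle phosphate energy, the brain-type Ckb was bright (12.07 ± 0.05), the mitochondrial Ckmt1 was partly at the floor (4.42 ± 0.40), and the muscle-type Ckm and the mitochondrial Ckmt2 were at the floor. Of the calcium pumps of the reticulum, Atp2a2 (10.92 ± 0.14) and Atp2a3 (11.48 ± 0.13) were bright and the fast-muscle Atp2a1 dim (4.57 ± 0.74). Atp2a1 was high on DMSO 2 alone, at 5.66 against 4.07 to 4.36 on the other arrays. The glucose transporter genes were both above the floor, the common Slc2a1 at 12.22 ± 0.07 and the insulin-responsive Slc2a4 at 9.89 ± 0.15.

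Of the 4 markers of the cells, 3 were bright or very bright. Adiponectin, Adipoq, the hormone made by mature fat cells, measured 14.46, 14.55, 14.41 and 14.49 on DMSO 1 to 4 and held rank 51 of all genes. Cidec, which enlarges lipid droplets, measured 12.15, 12.29, 12.36 and 12.24 and held rank 693. Ucp1, by contrast, measured 4.68, 5.15, 5.26 and 4.41, a mean of 4.87 ± 0.40, at a mean intensity of 30.2. It was above the floor on all 4 arrays, but 6 of the 1241 receptor genes named above had the same or a higher mean, so its signal is not separated from that of genes these cells do not use. Of the 4 markers, Adipoq and Cox7a1 were thus very bright, Cidec bright and Ucp1 at the lower end of the dim genes.

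**Figure D2:**
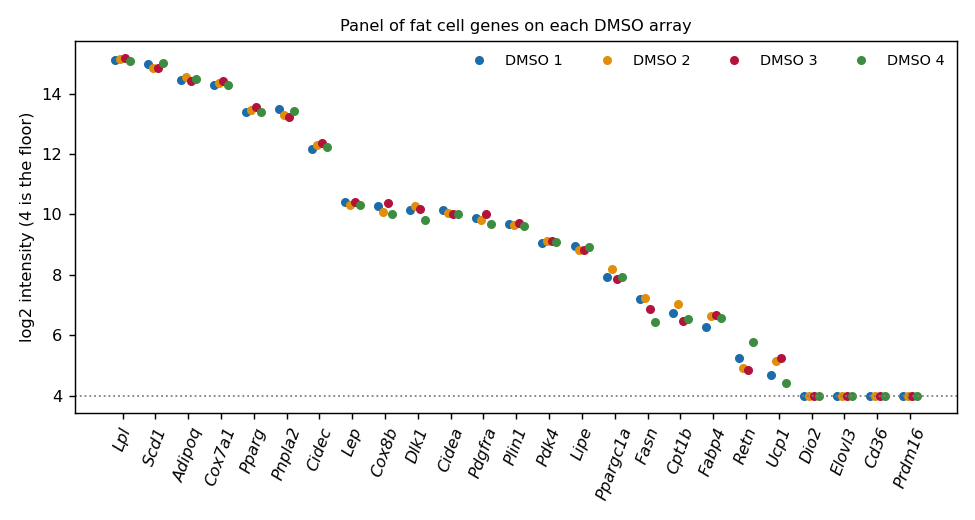
Log2 intensity (vertical axis, with the floor of 4 as a dotted line) of the 25 measured genes of a panel of fat cell genes on each DMSO array, 1 coloured point per array. Lpl, Scd1, Adipoq and Cox7a1 lie above 14 on all 4 arrays, Ucp1 lies between 4.41 and 5.26, and Cd36, Prdm16, Dio2 and Elovl3 lie at the floor.

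Among fat cell genes, the brightest act in loading and making fat. Lpl, the lipase that frees fatty acids from lipoproteins, measured 15.10, 15.13, 15.17 and 15.07 and held rank 9. Scd1, which desaturates fatty acids, measured 14.96, 14.84, 14.84 and 15.02 and held rank 14. Of 24 measured genes of fatty acid and triglyceride synthesis, 22 were above the floor on all arrays, 14 reached a mean of 10, and the median was 10.64. Acly (14.22 ± 0.11) and Acss2 (13.92 ± 0.07), which make acetyl-CoA, Acaca (13.16 ± 0.06), which carboxylates it, and Dgat2 (12.90 ± 0.07), which completes the triglyceride, were bright or very bright. Fasn, the fatty acid synthase, read by 1 probe, was dim at 6.93 ± 0.37, from 6.42 on DMSO 4 to 7.23 on DMSO 2. Pck1, which feeds glycerol synthesis, and Elovl3, an elongase of stimulated brown fat, lay at the floor.

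Of 20 measured genes of lipid droplets and lipolysis, 19 were above the floor on all arrays, with a median of 10.13. The lipase inhibitor gene G0s2 (14.30 ± 0.04) and its target Pnpla2, the lipase that starts triglyceride breakdown (13.36 ± 0.12), were both very bright, as was the seipin gene Bscl2 (13.84 ± 0.05). The coat protein genes Plin4 (12.80 ± 0.11), Plin2 (11.45 ± 0.07), Plin1 (9.67 ± 0.03), Plin3 (9.61 ± 0.11) and Plin5 (7.54 ± 0.05) were all above the floor. The hormone-sensitive lipase gene Lipe lay at 8.88 ± 0.06 and Cidea, the droplet protein of brown fat, at 10.05 ± 0.07. Of 18 measured genes of fatty acid uptake, 15 were above the floor on all arrays, with the caveolin gene Cav1 at 13.87 ± 0.04. Fabp5 (10.41 ± 0.16) was bright, Fabp4 (6.54 ± 0.17) and Fabp3 (4.33 ± 0.25) were dim, and the uptake receptor gene Cd36 was at the floor. Fabp4 and Cd36 were each read by 1 probe, and the second probe of Fabp5 lay at the floor.

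The transcription factors of fat cells followed. Of 26 measured, 20 were above the floor on all arrays, with a median of 7.94. Pparg measured 13.38, 13.46, 13.57 and 13.39 and Cebpb, which acts before it in differentiation, 13.57, 13.56, 13.34 and 13.31. Both were very bright, at ranks 219 and 220. Cebpa, which acts with Pparg in mature fat cells, was moderate at 9.38 ± 0.07. The lipid synthesis regulators Srebf1 (11.08 ± 0.23), Nr1h3 (10.64 ± 0.05) and Mlxipl (9.70 ± 0.14) and the mitochondrial regulator Esrra (10.82 ± 0.08) were moderate or bright. The second probe of Srebf1 lay at the floor. The PPAR receptor gene Ppara was partly at the floor (4.08 ± 0.16) and Ppard at the floor.

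The brown fat list was mixed. Of 39 measured genes, 23 were above the floor on all 4 arrays, 5 on 1 to 3 and 11 on none, with a median of 7.98, and 10 reached a mean of 10. Beside the cytochrome oxidase subunits and Ckb, the developmental transcription factor genes of brown fat precursors Zic1 (10.07 ± 0.03) and Ebf2 (9.76 ± 0.14) were above the floor, and so were the coactivator genes Ppargc1b (10.00 ± 0.09) and Ppargc1a (7.98 ± 0.14), which promote mitochondrial biogenesis. Pdk4, a brake on pyruvate oxidation (9.10 ± 0.04), the potassium channel gene Kcnk3 (8.97 ± 0.16) and the secreted factor genes Nrg4 (8.68 ± 0.12) and Fgf21 (8.18 ± 0.15) were moderate. The genes at the floor on all arrays were Prdm16, a transcriptional regulator of brown fat identity, Dio2, which activates thyroid hormone, Elovl3, Bmp7, Bmp8b, Ckmt2, Cpn2, Epsti1, Eva1a, Gatm and Slc27a2. Beta-adrenergic receptor genes were not analysed here.

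Genes used as markers of white fat were also found. Of 19 measured, 13 were above the floor on all arrays, with a median of 7.18. Leptin, Lep, measured 10.43, 10.32, 10.41 and 10.32, a spread of 0.06 (SD) at rank 2342. The haptoglobin gene Hp (13.05 ± 0.17), the serine synthesis gene Psat1 (13.06 ± 0.09), the acute-phase gene Orm1 (12.15 ± 0.10) and Ccdc3 (11.52 ± 0.12) were bright or very bright. Resistin, Retn, lay at 5.20 ± 0.42, and Nrip1, Wt1, Slc7a10, Tcf21 and Nnat lay at the floor. Of 9 measured markers of beige fat cells, which arise within white fat, 4 were above the floor on all arrays and none reached 10. They were Hoxc9 (7.64 ± 0.09), the transporter gene Slc36a2 (7.55 ± 0.04), Shox2 (6.99 ± 0.22) and the channel gene P2rx5 (4.56 ± 0.38), while Tmem26, Cited1 and Tbx15 lay at the floor.

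Genes for secreted proteins ranged from very bright to the floor. Of 45 measured genes for proteins that fat cells secrete, 35 were above the floor on all arrays, 19 reached a mean of 10 and 9 a mean of 13. After Adipoq came the matrix protein gene Sparc (14.18 ± 0.04), the saposin precursor gene Psap (14.09 ± 0.04), the protease inhibitor gene Cst3 (13.93 ± 0.11), the binding protein gene Igfbp7 (13.88 ± 0.09) and Rarres2 (13.71 ± 0.06), which encodes the adipokine chemerin. The second probe of Igfbp7 lay at the floor. Serpinf1, an inhibitor of vessel growth, lay at 13.44 ± 0.09, Angptl4, an inhibitor of lipoprotein lipase, at 12.83 ± 0.07, the angiogenic factor gene Vegfa at 12.81 ± 0.08, and Rbp4, the retinol carrier, at 12.51 ± 0.19. The inflammatory Il6 and Tnf lay at the floor and the chemokine gene Ccl2 at 8.59 ± 0.35, lowest on DMSO 1 at 8.08.

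Receptors were dimmer. Of 32 measured receptors for hormones and metabolites, 19 were above the floor on all arrays, with a median of 4.89. Ffar4, a receptor for long-chain fatty acids, measured 13.28, 13.32, 13.17 and 13.21 at rank 278, ahead of the adiponectin receptor genes Adipor2 (13.03 ± 0.04) and Adipor1 (12.48 ± 0.10) and the growth hormone receptor gene Ghr (12.07 ± 0.18). The receptor for short-chain fatty acids Ffar2 (9.75 ± 0.12), the FGF21 coreceptor gene Klb (9.58 ± 0.22), the lactate receptor gene Hcar1 (8.93 ± 0.15), Acvr1c (8.89 ± 0.08) and the niacin receptor gene Hcar2 (8.38 ± 0.16) were moderate. The insulin receptor gene Insr was at the floor on its single probe.

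**Figure D3:**
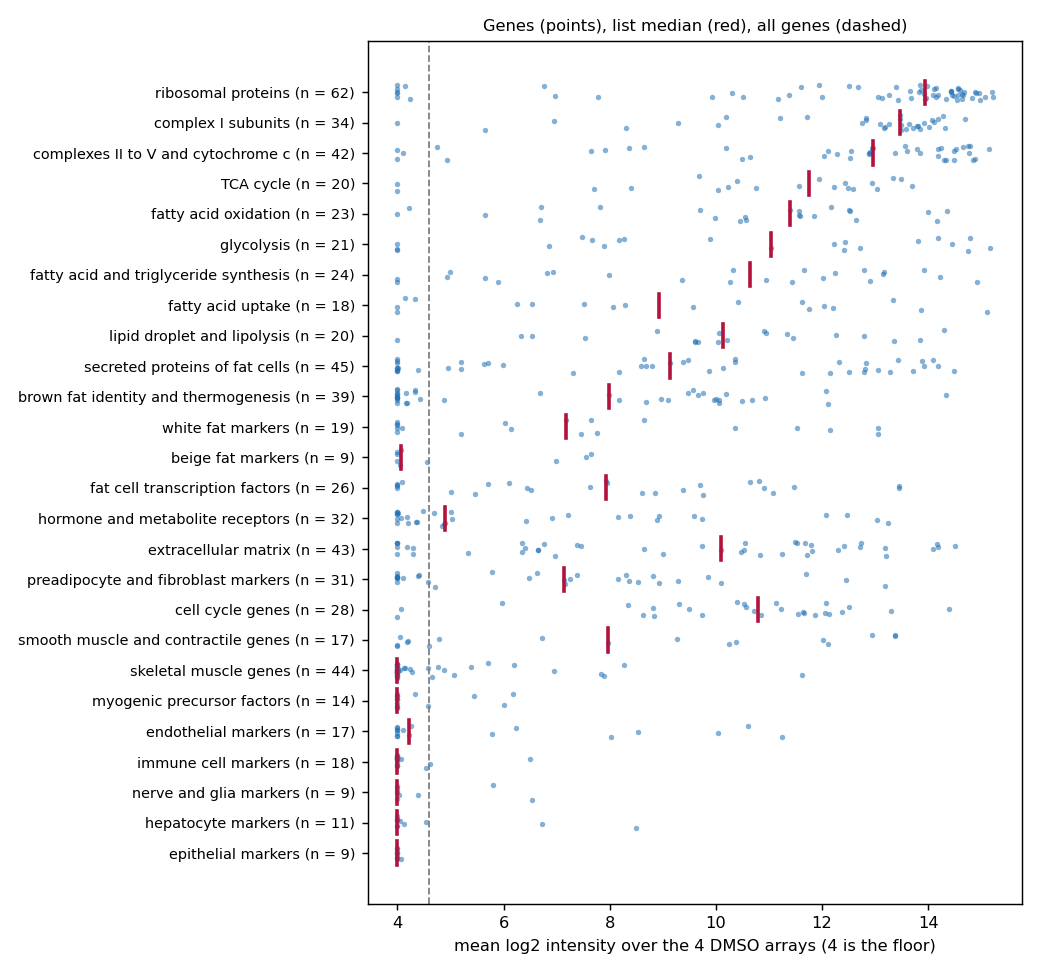
Mean log2 intensity over the 4 DMSO arrays (horizontal axis) of every measured gene of 26 lists (1 blue point per gene, with the number of genes), with the median of each list in red and the median of all 16593 genes, 4.60, as a dashed line. Ribosomal and respiratory chain lists lie at the right, and the medians of the skeletal muscle, myogenic, immune, nerve, liver and epithelial lists lie at the floor of 4.

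Matrix genes were bright in these fat cell cultures. Of 43 measured genes of the extracellular matrix, 35 were above the floor on all arrays, 22 reached a mean of 10, and the median was 10.09. Some basement membrane and pericellular proteins led: Col6a1 measured 14.49, 14.63, 14.53 and 14.41 at rank 45, and Col4a1 (14.08 ± 0.12), Col4a2 (13.21 ± 0.06), Col15a1 (13.18 ± 0.12), the proteoglycan gene Bgn (14.17 ± 0.05) and the perlecan gene Hspg2 (12.71 ± 0.10) were bright or very bright. Of the laminin genes, Lamc1 (11.79 ± 0.08) and Lamb2 (10.53 ± 0.09) were bright and Lamb1 (6.35 ± 0.26) and Lama4 (5.33 ± 0.51) dim. Lama2 was partly at the floor (4.30 ± 0.22). Of the fibrillar collagen genes, Col5a1 was the brightest at 12.30 ± 0.05, and Col1a1 lay at 11.73 ± 0.09 and Col3a1 at 8.64 ± 0.14. Col5a2 (6.97 ± 0.08), Col1a2 (6.66 ± 0.27) and Col5a3 (6.65 ± 0.29) were dim. The chains of Col1a1 and Col1a2 form 1 trimer, and their probes read far apart. Postn, Mfap4, Mfap5, Lum and Fbln5 lay at the floor. Of 27 measured matrix proteases, inhibitors and modifying enzymes, 23 were above the floor on all arrays, led by P4hb (14.52 ± 0.10), a subunit of the collagen prolyl hydroxylase, and the crosslinking enzyme genes Lox (12.77 ± 0.11) and Loxl1 (12.53 ± 0.04).

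Markers of precursor cells were mostly moderate or dim. Of 31 measured preadipocyte and fibroblast markers, 21 were above the floor on all arrays, 4 reached a mean of 10, and the median was 7.14. Vim, the intermediate filament gene of mesenchymal cells, measured 13.08, 13.04, 13.28 and 13.33. Dlk1, an inhibitor of fat cell differentiation, measured 10.16, 10.29, 10.17 and 9.80, and the precursor marker Pdgfra 9.87, 9.80, 10.01 and 9.68. Both were lowest on DMSO 4. Thy1, Dpp4, Pi16, Cd24a, Cd55, F3 and Lum were at the floor. Of 17 measured smooth muscle and contractile genes, 11 were above the floor on all arrays, 4 on 1 to 3 and 2 on none. A mean of 10 was reached by 7 (41.2%, against 16.8% of all genes). The smooth muscle actin gene Acta2 (12.95 ± 0.07), Myh9 (12.11 ± 0.10), Tpm1 (12.02 ± 0.09), Tpm2 (10.38 ± 0.10) and Cnn3 (10.26 ± 0.11) were bright. Smtn was moderate (9.26 ± 0.10). Tagln (4.59 ± 0.57), Myh11 (4.19 ± 0.36) and Cnn1 (4.05 ± 0.10), other genes of smooth muscle, were partly at the floor. Genes of the cell cycle were above the floor in 26 of 28 measured, with a median of 10.79. The exceptions were the cyclin genes Ccna2, partly at the floor (4.07 ± 0.14), and Ccnb2, at the floor on all arrays. The replication gene Mcm4 (13.29 ± 0.04), the mitotic kinase gene Cdk1 (12.12 ± 0.09), Birc5 (11.87 ± 0.13) and Top2a (11.13 ± 0.13) stood beside the cell cycle inhibitor genes Cdkn1c (14.39 ± 0.05), Cdkn1a (12.51 ± 0.05) and Cdkn2a (10.40 ± 0.26).

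Brown adipocytes descend from precursors that also give muscle, so muscle genes were examined. Of 14 measured myogenic and mesodermal factors, 3 were above the floor on all arrays, En1 (6.18 ± 0.30), Mef2a and Mef2d (5.44 ± 0.51), all 3 dim. Myf5, Myod1, Pax3 and Pax7 lay at the floor and Myog was partly at it (4.57 ± 0.44). Of 44 measured skeletal muscle genes, 13 were above the floor on all arrays and 25 on none. Only myoglobin, Mb, which binds oxygen in muscle, reached a mean of 10, at 11.56, 11.61, 11.61 and 11.74, and its second probe lay at 9.81. Desmin, Des (8.27 ± 0.10), the enolase gene Eno3 (7.90 ± 0.05) and the slow troponin C gene Tnnc1 (7.83 ± 0.11) were moderate. At a floor of 50 the count of 13 fell to 6.

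Markers of immune, nerve and glia, liver and epithelial cells were mostly at the floor. Of 17 measured endothelial markers, 8 were above the floor on all arrays (47.1%, against 49.9% of all genes). Of these, 3 were bright, 2 moderate and 3 dim. Plvap (11.37, 11.22, 11.18 and 11.22), Ece1 (10.61 ± 0.14) and Egfl7 (10.04 ± 0.16) led. Cdh5, Kdr, Tie1, Emcn, Esam, Sox17 and Vwf were at the floor and Pecam1 was above it on DMSO 3 only. Of 18 immune markers, Cd74 (6.49 ± 0.17) alone was above the floor on all arrays; Ptprc, Adgre1, Itgam, Lyz2, Cd3e and Ms4a1 were at the floor. Without DMSO 3, or without DMSO 4, the immune count was 2. Of 9 nerve and glia markers 2 were above the floor on all arrays, Syp (6.54 ± 0.28) and Mbp (5.80 ± 0.15). Of 11 hepatocyte markers 2 were, Trf (8.49 ± 0.17) and Apoa1 (6.71 ± 0.12), and of 9 epithelial markers 0 were.

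Genes above the floor on all 4 arrays with a mean of at least 8 were ordered by SD. Clone, accession, pseudogene and predicted-gene names were left out. The 12 genes with the largest SD were all genes that interferons are known to induce. They were Ifit3, Isg15, Oasl2, Gbp3, Usp18, Dhx58, Ifi27l2a, Irgm2, Lgals9, Parp14, Irf9 and Bst2, and all 12 were highest on DMSO 3. Interferons are antiviral cytokines; their receptors act through JAK kinases, and factors such as IRF9 take part in binding a promoter element built of a pair of GAAA blocks. Ifit3, which encodes an antiviral protein, measured 9.89, 9.25, 11.38 and 9.22 on DMSO 1 to 4. Isg15, a ubiquitin-like modifier, measured 8.40, 7.94, 9.62 and 7.37. Oasl2 measured 9.24, 9.11, 10.86 and 8.73. DMSO 3 exceeded the mean of the other arrays by 1.93 in Ifit3, 1.72 in Isg15 and 1.84 in Oasl2. These genes were taken for their spread over the same arrays, so the differences depend on that choice. The SD of Ifit3 was 1.01 with all arrays and 0.38 without DMSO 3, that of Isg15 0.96 and 0.52, and that of Oasl2 0.94 and 0.27.

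**Figure D4:**
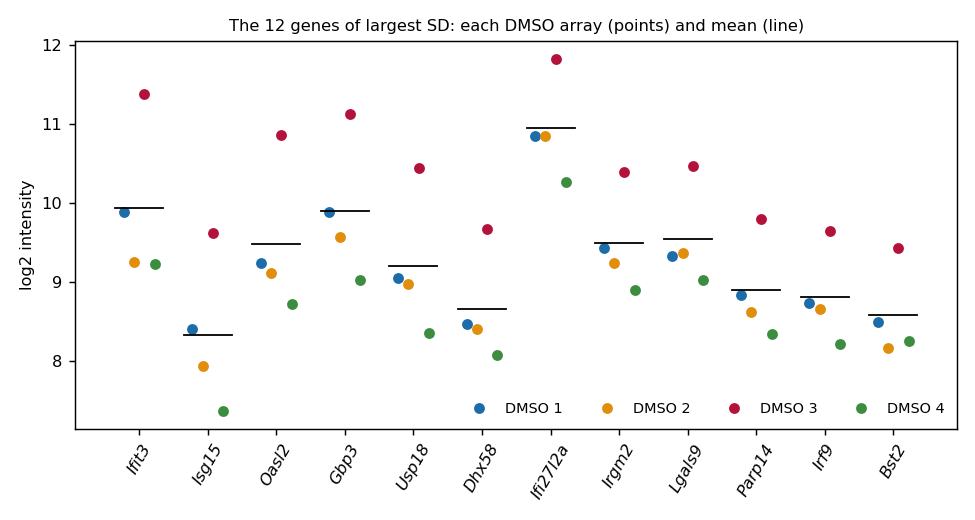
Log2 intensity (vertical axis) of the 12 genes with the largest SD among genes with a mean of at least 8, 1 coloured point per DMSO array and a line at the mean. DMSO 3 is the highest point of all 12 genes, with Ifit3 at 11.38 and Bst2 at 9.43 among them.

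The promoters of these genes were read from RefSeq (GRCm38.p6), as 300 bases from 250 before to 50 after the gene start, and searched on both strands for GAAA, any 2 bases and GAAA, so that TTTC, any 2 bases and TTTC counts too. Matches may overlap. A window was given for 8 of the 12 genes and 6 held a match: Ifit3, Isg15, Gbp3, Irgm2, Lgals9 and Bst2. Of all 27025 genes in the table, 3.99% held one in at least 1 window, and of the genes above the floor on all 4 arrays 3.69% did. Of all 32851 windows, 3.44% held one. On the interferon response list described below, 25 of 52 genes with a window held a match (48.1%). Among its genes above the floor on all arrays, some exceeded the next array by over 0.5 on DMSO 3. Of these, 16 of 25 with a window held a match (64%), and of the others 5 of 17 (29.4%). Whether the match goes with the level on DMSO 3 was not tested. The matches are descriptions of letters and not of binding. The stretches around the first match are shown because these genes moved together, each on the strand of its gene from 5′ to 3′, with the match in capitals.
Ifit3, chr19:34583348-34583407, plus strand: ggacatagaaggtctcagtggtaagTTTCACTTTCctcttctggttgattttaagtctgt
Isg15, chr4:156200862-156200921, minus strand: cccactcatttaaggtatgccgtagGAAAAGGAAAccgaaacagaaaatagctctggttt
Gbp3, chr3:142559974-142560033, plus strand: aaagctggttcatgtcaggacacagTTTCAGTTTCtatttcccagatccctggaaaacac
Irgm2, chr11:58214888-58214947, plus strand: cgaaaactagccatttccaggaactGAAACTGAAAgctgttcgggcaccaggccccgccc
Lgals9, chr11:78984945-78985004, minus strand: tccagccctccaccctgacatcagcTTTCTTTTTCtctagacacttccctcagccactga
Bst2, chr8:71537568-71537627, minus strand: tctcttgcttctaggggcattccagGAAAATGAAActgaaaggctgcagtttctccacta
The first bases of the matches lay 45 to 156 bases before the gene start. Isg15 had 3 matches in its window, Ifit3, Gbp3, Lgals9 and Bst2 had 2 each and Irgm2 had 1. The windows of Oasl2 and Irf9 held no match to these letters.

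A list of 71 interferon response genes, written after the variable genes had been seen, was then read on all arrays. Of 67 measured, 52 were above the floor on all 4 arrays, with a list median of 8.18. Of these 52, 47 were highest on DMSO 3 (90.4%), against 20.4% of all 8285 genes above the floor on all arrays. The 12 variable genes that prompted the list are among the 52. Of the other 40, 35 were highest on DMSO 3 (87.5%), with a median difference of 0.67. DMSO 3 exceeded the mean of the other 3 arrays by a median of 0.81 over these 52 genes and by -0.01 over all 8285. For DMSO 1, DMSO 2 and DMSO 4 the same median over the 52 genes was -0.10, -0.21 and -0.45. The gap to the next array was over 0.5 on DMSO 3 in 31 of the 52 genes, against 0.821% of all genes, and in 0 of the 52 on each of the other arrays, where the shares of all genes were 0.314% for DMSO 1, 0.7% for DMSO 2 and 0.664% for DMSO 4.

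**Figure D5:**
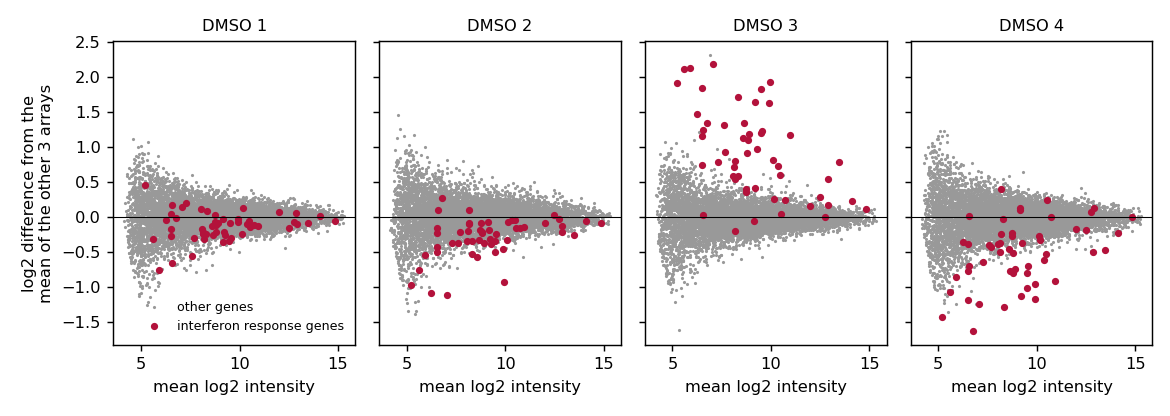
Log2 difference of each gene on an array from the mean of the other 3 DMSO arrays (vertical axis) against its mean log2 intensity (horizontal axis), 1 panel per array, for the 8285 genes above the floor on all arrays. Of the 52 interferon response genes (red), 50 lie above 0 on DMSO 3, with a median of 0.81, and most lie below 0 on DMSO 4 with a median of -0.45.

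The genes that stood out on DMSO 3 cover the antiviral effectors, the sensors and the regulators of the response. Among effectors, Rsad2, whose product makes an antiviral nucleotide, measured 7.18, 6.24, 8.71 and 6.14, a difference of 2.19 from the mean of the other arrays. Mx2, an antiviral GTPase, differed by 1.85 and Ifitm3, which hinders virus entry and is very bright in these cells (13.47 ± 0.41), by 0.79. Among sensors of viral RNA, Dhx58 differed by 1.35 and Ddx58 by 0.94, and Ifih1 lay at the floor. Among regulators, Irf7 differed by 1.48 and Irf9 by 1.11. The chemokine gene Cxcl10 differed by 1.32, at 8.58 on DMSO 3 and 7.18 to 7.32 on the others. Usp18, which removes Isg15 from proteins, differed by 1.65. The activating and conjugating enzyme genes Uba7 (10.08 on DMSO 3, 9.32 to 9.56 on the others) and Ube2l6 (7.98, and 6.89 to 7.17) were higher there by over 0.5. The gene with the largest difference of all, 2.32, was the apolipoprotein L gene Apol9b, at 6.60, 6.41, 8.65 and 5.98. Uba7, Ube2l6 and Apol9b were not on the list and were chosen after their values were seen.

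Not every gene of the response stood out. Irf1, a factor induced by type II interferon (11.99 ± 0.11), Irgm1 (12.75 ± 0.04), Pml (10.16 ± 0.19) and H2-D1 (9.14 ± 0.07) did not exceed the next array by 0.5 on DMSO 3. The second probe of Irgm1 did, at 7.39, 7.32, 8.25 and 6.75, so the probes of this gene disagree. Of genes that act in class I antigen presentation, B2m lay at 14.93 on DMSO 3 and 14.78 to 14.85 on the others, and Tap1 at 9.03 and 8.59 to 8.70. The class I gene H2-K1 lay at 8.75 and 8.05 to 8.29, and the proteasome subunit gene Psmb8 at 9.49 and 8.91 to 9.25. The interferon genes Ifnb1, Ifna2, Ifna4 and Ifng and the receptor subunit gene Ifnar1 lay at the floor on all arrays, DMSO 3 included. The other subunit gene Ifnar2 measured 6.83, 7.20, 6.86 and 6.82, and the kinase genes Tyk2 (8.45 ± 0.05) and Jak2 (9.53 ± 0.06) were moderate with little spread.

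Other probes of these genes were also read. Of the 67 measured genes of the list, 19 had a second probe above the floor on all 4 arrays, and 18 of these were highest on DMSO 3, where 24.6% of all 2292 such second probes were. The exception was H2-K1, whose second probe was highest on DMSO 2. The median difference from the other arrays was 0.93 on these probes. Genes taken for their large SD, such as Ifit3 and Usp18, are among them. The second probes also read the same RNA as the first, so they are not independent of them. The second probe of Ifit3 measured 7.64, 7.07, 9.51 and 6.96, and that of Usp18 8.07, 7.93, 9.74 and 7.48. Over the 6189 genes with a mean of at least 7, DMSO 3 was the highest array by over 0.5 in 27 genes, 22 of them on the list. The others were Ube2l6, Uba7, Gbp2b, Ly6e and Gm1943. By the same measure DMSO 2 was highest in 12 genes, among them Cycs (8.15, and 7.36 to 7.57 on the others), DMSO 4 in 2 and DMSO 1 in 1.

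Differences were small in the main fat cell genes, although DMSO 3 was the highest array for Lpl, Cidec, Pparg and Plin1. The difference of DMSO 3 from the mean of the other arrays was -0.09 for Adipoq, 0.07 for Lpl, 0.13 for Cidec, 0.16 for Pparg and 0.05 for Plin1. Leaving DMSO 3 out changed the number of genes above the floor on every array from 8285 to 8398. With DMSO 1, DMSO 2 or DMSO 4 left out it was 8410, 8397 and 8431. Fewer arrays then have to pass, so the rise is not particular to DMSO 3.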

How the data were processed

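Total RNA of the 4 DMSO samples was measured on arrays whose probe names are of Illumina form, while the labelling note names an Agilent protocol. The authors deposited 1 normalized intensity per probe and array. Per the submitters' processing notes GenomeStudio was used; no version of it is stated. Sorted values are nearly the same on all arrays of the series, treated ones included, so the normalization fixes the number of genes in each brightness class. The depth behind an array value is not known, and 4 arrays limit the precision. From 25697 probes, 23978 had 1 gene symbol and 1719 none. Intensities under 16 were set to 16, log2 was taken, and each gene was read by its brightest probe (mean of the 4 arrays). For the choice of the genes of largest SD, a gene had to be above the floor on all 4 arrays. Clone, accession, pseudogene and predicted-gene names were left out of that choice. Named were the 40 brightest genes in part, a panel of fat cell genes, up to 10 brightest members and members at or partly at the floor of each list, and the 12 genes of largest SD with a mean of at least 8. Of 274 genes named, 53 lay outside this rule and were chosen after their values were seen. Some collagen, laminin, contractile and cyclin genes were named beyond these 274, also after their values were seen. The members and lists were chosen with earlier results of these data known, and the lists of interferon and metallothionein genes after the values were seen. With 1 group, no test was run. Promoters came from RefSeq (GRCm38.p6). The code was tested on simulated data. Python 3.11.15, numpy 2.4.6, pandas 2.3.3 and matplotlib 3.10.9 were used. Alternatives were other floors, probe choices and scalings and leaving out each array.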

Additional observations from a re-analysis of the deposited data

Results flagged for a closer look

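Of the 274 named genes counted above, 203 had a level above the floor on at least 1 array. Of these 203, 23 had an array that lay far from the other 3 (11.3%). Chance gives about 1 in 20 groups, and 4.84% of all 8285 genes above the floor did so. The 11.3% cannot be set against these shares. The 203 include genes partly at the floor and genes chosen after their values were seen. Genes above the floor on 1 array only meet Dixon's criterion by construction: Actg1 on DMSO 4 (4.72), Cnn1 on DMSO 4 (4.20), Eef1a1 on DMSO 3 (4.25), Pecam1 on DMSO 3 (5.05), Ppara on DMSO 2 (4.31), Uqcrq on DMSO 1 (4.43) and Xist on DMSO 4 (4.84). Genes of the interferon response list high on DMSO 3 were Cxcl10 (8.58, against 7.18 to 7.32) and Ddx58 (8.38, against 7.36 to 7.52). Ly6e, not on that list, was also high there (11.05, against 10.41 to 10.48). Other genes high on DMSO 3 were Adipor2 (13.09), Lgals1 (14.77), P2rx5 (5.12, against 4.28 to 4.42) and Top2a (11.32, against 11.04 to 11.08). Mt1 was flagged as low there (15.29, against 15.33). All arrays share the same highest intensity, 41175, which Mt1 held on every array but DMSO 3. The flag of Mt1 thus reflects its order and not a measured drop.

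High on DMSO 2 were Col3a1 (8.85, against 8.55 to 8.59), Hk1 (7.64), Ifnar2 (7.20), Myh11 (4.73) and Psat1 (13.20), and Ier3 was low there (11.54). Kdm5d was low on DMSO 1 (5.38, against 5.54 to 5.56) and Mbp on DMSO 4 (5.57). Causes were not tested.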

How the results depend on the processing

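At a floor of 50 the median level of genes above the floor went from 8.85 to 9.39, the median r between arrays from 0.9963 to 0.9981, the share of receptor genes above the floor from 1.05% to 0, and the share of second probes in the class of the first from 38.9% to 37.2%. At a floor of 100, 9868 genes lay at the floor on every array in place of 6354, and 0 receptor genes lay above it. With probes of a gene averaged, the median level was 8.57 and r 0.9967, and with log2 of the intensity plus 16 they were 8.90 and 0.9931. Taken singly, 10416 probes lay at the floor, and over genes above the floor alone r was 0.9938. Leaving out each array gave a median level of 8.80 to 8.81, r of 0.9959 to 0.9965, 8397 to 8431 genes above the floor and 32 to 34 interferon response genes whose gap on DMSO 3 was over 0.5 in place of 31; the last range covers the arrays other than DMSO 3. Without DMSO 2, 21 receptor genes in place of 13 were above the floor. A gap of 1 left 14 interferon genes. The alternatives for interferon genes were chosen after seeing the data. Of 274 named genes, a floor of 50 moved 92 levels by over 1 SD, the added 16 moved 80 and the mean of probes 48. The causes of these shifts were not tested. No paired analysis was possible because 1 group was described and nothing was compared. Dim genes had an SD of 0.249 in the median, which limits what can be read of them.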

Other observations

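Immediate early genes respond within minutes to stimuli. Of 21 measured, 15 were above the floor on all 4 arrays, with a median of 7.01, and 3 reached a mean of 10 (14.3%, against 16.8% of all genes). Egr1 (11.96 ± 0.08), Ier3 (11.72 ± 0.12) and Dusp1 (10.45 ± 0.13), a phosphatase that ends kinase signalling, were these 3. Jun (8.85 ± 0.10) and Fos (7.08 ± 0.25) were moderate, and Nr4a1, Btg2 and Ier5 lay at the floor.

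Of the genes on the Y chromosome, Eif2s3y, a translation factor gene, measured 9.02, 8.87, 8.63 and 8.82. Kdm5d (5.51 ± 0.08) and Uty (5.10 ± 0.17) were dim, with 2 and 3 of the 1241 receptor genes at or above their means. Xist, the RNA that silences an X chromosome, was above the floor on DMSO 4 only.

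Of 1719 probes with no gene symbol, 721 were above the floor on all 4 arrays (41.9%) and 34 reached a mean of 13. They were not named here.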
